A study of Mus musculus with 15 samples.

Results

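The genes described here are the nuclear-encoded subunits of oxidative phosphorylation complexes II, III, IV and V, with cytochrome c, in a mouse mammary cancer cell line. They were chosen by symbol: Sdha to Sdhd, all symbols beginning with Uqcr, Cyc1, Cycs, the Cox4 to Cox8 symbols and all symbols beginning with Atp5, leaving out those that contain -ps. Of 55341 rows of the count table, 50 matched: 4 of complex II, 9 of complex III, cytochrome c itself, 19 of complex IV and 17 of complex V. The 9 rows left out for -ps held between 0 and 4 counts each. A total of 43 of the 50 had enough counts to be tested, among 13085 tested genes. The other 7 were all complex IV symbols. Not every match is a structural subunit: Cox6c2 is annotated as a processed pseudogene, and Atp5s encodes a coupling factor of the ATP synthase.

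Per its title, the study concerns mitochondrial function and transcription without CLIC4, a member of the chloride intracellular channel family, in 6DT1 cells, a mammary cancer line of FVB/N1 strain background. RNA was sequenced from wild-type cells left untreated (n = 4) or given 1 µM hydrogen peroxide (H2O2) for 24 h (n = 4), and from Clic4 knockout cells left untreated (n = 4) or given the same H2O2 (n = 3). Untreated cells were harvested at the same 24 h. All 4 groups are the same line. The labels do not say whether the knockout is 1 clone, nor whether replicates came from separate cultures, so p-values measure the spread between these libraries, which may be technical.

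Complex II (succinate dehydrogenase) passes electrons from succinate to ubiquinone, complex III passes them on to cytochrome c, and complex IV (cytochrome c oxidase) hands them to oxygen. Complexes III and IV pump protons, and complex V (ATP synthase) lets the protons flow back while making ATP. Complex II is built from nuclear genes alone, whereas III, IV and V also hold subunits encoded by mitochondrial DNA, so that both genomes must be expressed for the complexes to be assembled. Several complex IV subunits and the c subunit of complex V exist as isoforms from separate genes, some of them typical of muscle, lung or testis.

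Total counts ran from 12.31 to 16.03 M per library. Clic4 fell by 2.17 on the log2 scale in untreated knockout cells (edgeR, SE 0.043, adjusted p = 9.88e-26) and by 2.13 under H2O2. It was reduced rather than absent, at 71.3 ± 4.92 against 321 ± 5.05 CPM (counts per M counts, scaled by TMM) in untreated cells (SD, n = 4 each). Of the mammary epithelial markers, Krt8 and Krt18 were abundant, whereas Epcam and Cdh1 held at most 2 counts in any library. Krt18 was lower in the untreated knockout by a log2 change of -1.12, whereas Krt8 was not called (0.01, adjusted p = 0.868). Summed fibroblast markers (4 genes) were 12.0 ± 1.23 CPM in untreated knockout and 20.7 ± 1.16 CPM in untreated wild type (SD, n = 4 each). Nearly all of that sum was Pdgfra, at 10.1 to 12.9 CPM in the knockout and 18.2 to 21.0 CPM in wild type. Col1a1 was also lower, at 0.383 to 0.601 and 0.608 to 1.46 CPM (edgeR, log2 change -0.92, adjusted p = 0.034). The untested Col1a2 lay the other way at 0.190 to 0.460 and 0.0696 to 0.135 CPM, and the untested Dcn overlapped at 0.1335 to 0.443 and 0 to 0.3375 CPM. Of the 3 endothelial markers, Cdh5 was the one tested and rose by 1.21 on the log2 scale, from 0.638 to 0.765 CPM in wild type to 1.27 to 2.26 CPM in the knockout. The scarce Kdr lay mostly the other way, at 0.2125 to 0.405 CPM in wild type and 0 to 0.230 CPM in the knockout. Pecam1 overlapped, at 0 to 2.36 and 0.0685 to 0.253 CPM. The untreated wild-type library labelled replicate 9 held 25.6 CPM of 6 summed blood and immune markers, against at most 0.38 CPM in every other library, and its genotype field says knockout although its title, source and description say wild type. Its Clic4 level was 327 CPM, the highest of all libraries, beside 313 to 324 CPM in the other wild-type libraries, and it was kept as wild type by its title. The part these markers play in the results below was not tested.

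Promoters are shown for 3 members that rose in the knockout, because the factors known for respiratory genes are NRF1 (motif GCGC, any base, then TGCGC, without a gap), the ETS factor GABP (CCGGAAG), SP1 (GGGCGG) and YY1 (AAGATGGC). An E-box (CACGTG) was searched too. The stretches come from the RefSeq promoter table (build GRCm38.p6), all on the minus strand and printed 5′ to 3′ in the direction of the gene, and show the longest unbroken run of the 250 bases before the RefSeq start that lies outside any exon of GENCODE M21. For Cox6a1, other bases outside exons further upstream are not shown, nor is an ETS match that begins at -16 from the RefSeq start. Capitals mark motif matches on either strand. They are chr5:115348982-115349129 for Cox6a1, which holds 2 NRF1 and 2 SP1 matches, chr10:80406831-80407071 for Uqcr11 and chr4:116075072-116075268 for Uqcrh, which hold an ETS match each.
Cox6a1: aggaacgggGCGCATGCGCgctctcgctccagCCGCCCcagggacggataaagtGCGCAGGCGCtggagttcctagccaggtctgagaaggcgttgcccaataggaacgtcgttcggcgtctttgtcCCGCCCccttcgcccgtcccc
Uqcr11: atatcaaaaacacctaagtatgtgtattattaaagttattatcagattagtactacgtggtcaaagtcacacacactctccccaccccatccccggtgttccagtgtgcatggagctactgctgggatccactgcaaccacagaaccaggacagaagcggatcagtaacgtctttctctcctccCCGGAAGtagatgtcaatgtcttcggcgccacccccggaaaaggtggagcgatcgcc
Uqcrh: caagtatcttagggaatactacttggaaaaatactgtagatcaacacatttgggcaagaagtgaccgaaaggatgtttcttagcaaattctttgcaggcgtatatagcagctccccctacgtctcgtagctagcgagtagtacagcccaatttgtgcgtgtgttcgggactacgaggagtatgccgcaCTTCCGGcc

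The 250 bases before the start were searched in 38 promoters of 35 members that the table holds. An NRF1 match was found in 7 of the 38 (18.4%), against 3.74% of all 32851 promoters and 8.17% of the promoters of tested genes. The 7 belong to Sdha, Sdhd, Cox6a1, Atp5c1, Atp5g2, Atp5h and Atp5k. An ETS match was found in 9 (23.7%), against 6.91% of all and 13.9% of tested genes' promoters. SP1 matches were in 10 (26.3%), against 32.7% and 57.4%. E-box matches were in 3 (7.89%, against 6.02% and 8.38%), and a YY1 match in 1, that of Atp5j (2.63%, against 1.56% and 2.01%). The 38 include promoters of untested members. Of the 34 promoters of tested members, 20.6% held an NRF1, 26.5% an ETS, 23.5% an SP1, 8.82% an E-box and 2.94% a YY1 match. Of the 19 promoters of members that rose in the untreated knockout, 21.1% held an NRF1, 31.6% an ETS, 21.1% an SP1, 5.26% an E-box and 0% a YY1 match. Of the 13 promoters of members that were not called, 23.1% held an NRF1, 23.1% an ETS, 23.1% an SP1, 7.69% an E-box and 7.69% a YY1 match. A match is a description of letters and not a binding site.

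Levels were compared between genes per length, in RPKM. In untreated wild-type cells the median over members was 41.4 RPKM for complex II, 58.3 for III and 92.2 for the 12 tested members of IV. It was 55.1 RPKM for the 16 members of V that had RPKM values, which leaves out the scarce Atp5s. The highest single level was that of Atp5b, the catalytic beta subunit of ATP synthase, at 308 RPKM, followed by the complex IV subunit Cox4i1 at 238 RPKM. Without Atp5s, complex V ran from 17.8 to 308 RPKM. Complex IV ran from 0.567 to 238 RPKM, the low end being the muscle isoform Cox6a2. Within complex III, Uqcrq ranked seventh of 9 in untreated wild type and last of 9 in untreated knockout.

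**Figure D1:**
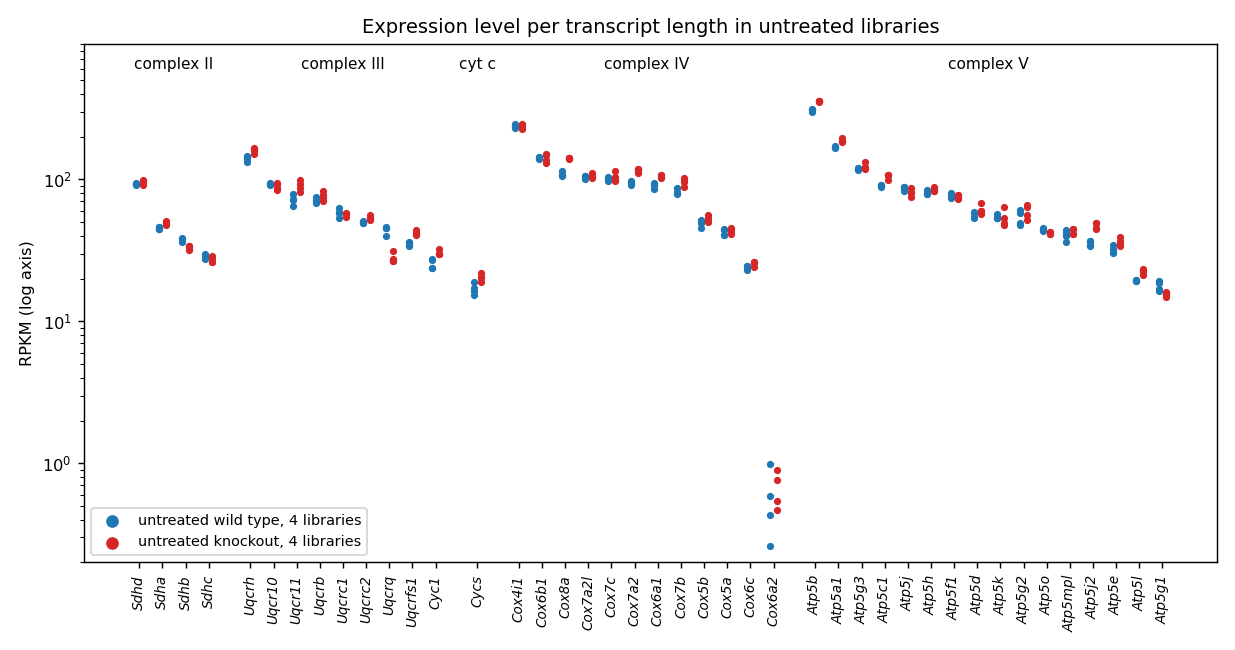
Expression of the tested members other than Atp5s, which had no RPKM value, in untreated libraries as RPKM on a log axis. Members are ordered within each complex by the wild-type mean, and each point is 1 library. Nearly all members lie between 10 and 400 RPKM, Cox6a2 lies near or below 1, and the separation of genotypes within a gene is small beside the spread between genes.

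In untreated cells, 26 of 43 members (60.5%) were called between knockout and wild type at an adjusted p under 0.05, of which 22 were higher and 4 lower in the knockout. Over all 13085 tested genes 66.8% were called, with 33.9% higher and 32.9% lower. The share of members called was thus close to the background, and the members' calls were mostly higher (51.2% of the 43, against 9.3% lower). The differences were small: the median absolute log2 change was 0.151 for members and 0.299 for all genes, and the median signed change was 0.128 and 0.003. Of the members, 2 (Uqcrq and Atp5s, both lower) changed by at least 1.5-fold, where 24.4% of all genes were called at that size. Libraries of the 2 genotypes did not overlap for 24 members, against 58.5% of all genes. By complex, the higher and lower calls were 1 and 1 of 4 for II, 6 and 1 of 9 for III, 6 and 0 of 12 for IV, and 8 and 2 of 17 for V, with cytochrome c higher. In bulk RNA, fewer cells of a type and less RNA per cell cannot be told apart.

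**Figure D2:**
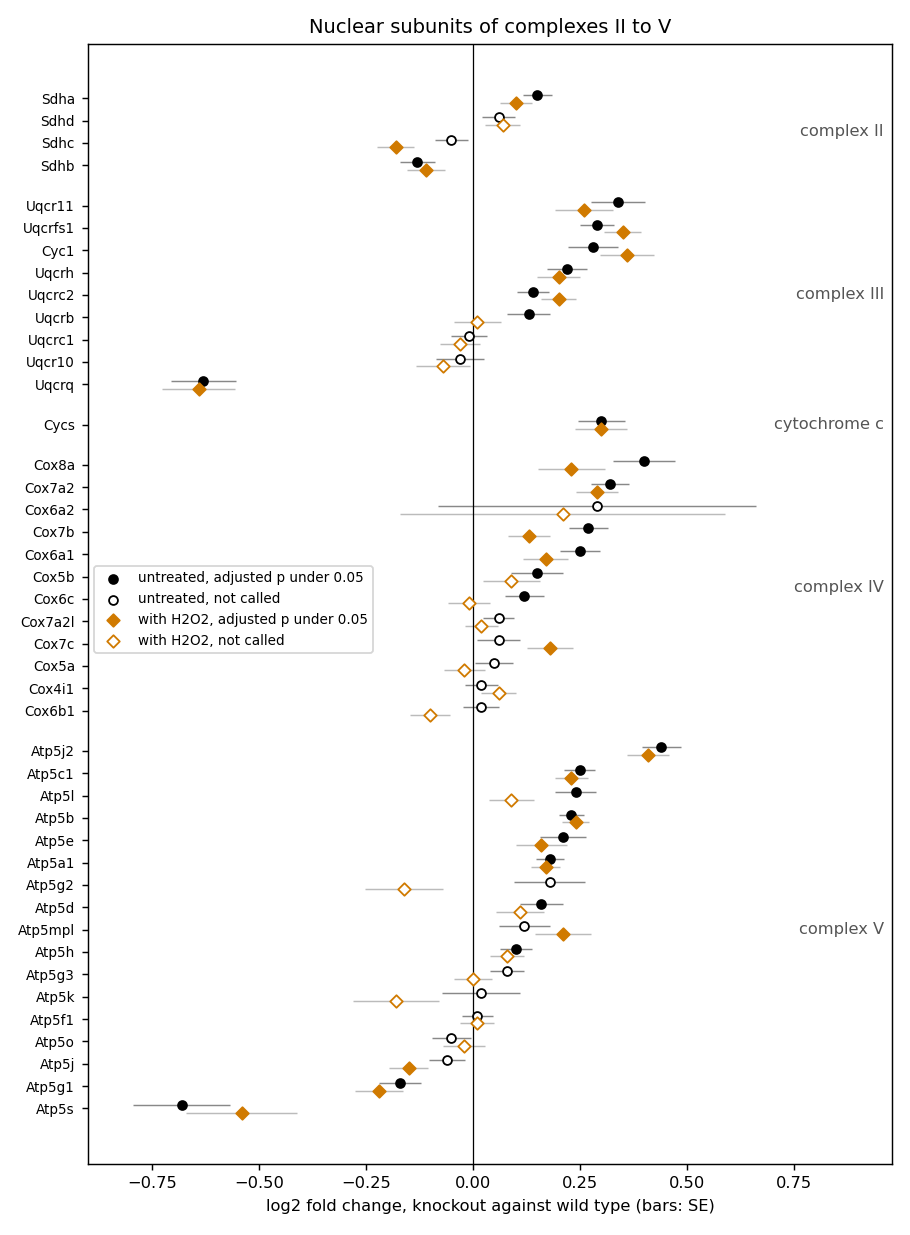
Log2 fold change of the 43 tested members, knockout against wild type, with bars of 1 SE, for untreated cells (circles) and H2O2-treated cells (diamonds); filled symbols passed the adjusted p of 0.05. Most filled symbols lie to the right of 0 and below 0.45, and Uqcrq and Atp5s stand apart on the left beyond -0.5.

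Complex II members moved in both directions. Sdha, the flavoprotein that oxidises succinate, was at 221.6, 217, 218 and 225 CPM in wild type and 242, 244, 237 and 252 CPM in the knockout. All knockout libraries lay above all wild-type libraries, and Sdha rose by 0.15 (log2, SE 0.034, adjusted p = 0.000445). Sdhb, its iron-sulfur partner, was at 75.4, 74.2, 71.4 and 72.3 CPM in wild type and 64.2, 68.4, 66.3 and 68.6 CPM in the knockout. It was lower in every knockout library, with a log2 change of -0.13 (SE 0.041, adjusted p = 0.00562). The membrane anchors Sdhc and Sdhd were not called, at log2 changes of -0.05 and 0.06.

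Complex III held both the rise of 6 members and the fall of Uqcrq. Uqcr11, a small accessory subunit, was at 44.1, 43.9, 40.1 and 48.5 CPM in wild type and 57.7, 51.0, 61.6 and 54.1 CPM in the knockout. The groups did not overlap, and it rose by 0.34 (log2, SE 0.063, adjusted p = 2.86e-05). Uqcrfs1, the Rieske iron-sulfur protein, went from 73.8, 75.0, 75.3 and 78.5 CPM to 97.3, 90.4, 90.6 and 92.5 CPM. Each knockout library was above each wild-type library (log2 change 0.29, SE 0.040, adjusted p = 2.6e-07). Cyc1, the cytochrome c1 that passes electrons to cytochrome c, was at 66.4, 58.3, 59.1 and 68.4 CPM in wild type and 74.9, 75.0, 81.0 and 75.3 CPM in the knockout, again without overlap (log2 change 0.28, SE 0.058, adjusted p = 0.000135). Uqcrh, Uqcrc2 and Uqcrb also rose, by 0.22, 0.14 and 0.13. The core subunit Uqcrc1 and Uqcr10 were not called, at -0.01 and -0.03.

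Uqcrq, the ubiquinone-binding QP-C protein of complex III, gave the second lowest log2 change of the 43 tested members. The gene lies at chr11:53427922-53430831 on the minus strand (GRCm38). Its level was 81.2, 79.9, 69.6 and 79.9 CPM in wild type and 47.6, 47.7, 56.0 and 48.6 CPM in the knockout. No knockout library reached the lowest wild-type library. The log2 change was -0.63 (SE 0.076, adjusted p = 6.77e-07), a fall to 0.644 of the wild-type level.

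Cytochrome c (Cycs), the mobile carrier between III and IV, was at 58.3, 55.4, 64.4 and 52.8 CPM in wild type and 72.1, 76.2, 70.7 and 65.1 CPM in the knockout. The groups did not overlap, and Cycs rose by 0.30 (log2, SE 0.055, adjusted p = 2.72e-05). Another row, Gm10053, shares most of its sequence with Cycs and held 16480 counts, 123% of the counts of Cycs when its other copies are added. Reads of the pair can be assigned to either, but Gm10053 was higher as well (log2 change 0.28, adjusted p = 6.01e-05). Their sum was 126.5 ± 9.40 CPM in wild type and 155 ± 6.64 CPM in the knockout (SD, n = 4 each).

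In complex IV, 6 of 12 tested members rose and none fell. Cox8a, the short membrane subunit, was at 79.5, 81.2, 81.5 and 86.8 CPM in wild type and 109.7, 109.5, 109 and 107 CPM in the knockout. The knockout libraries sat within a narrow band above all wild-type libraries, and the log2 change was 0.40 (SE 0.072, adjusted p = 0.00011). Cox7b, encoded on the X chromosome, was at 101, 98.5, 107 and 97.8 CPM in wild type and 121, 125, 112 and 128 CPM in the knockout (log2 change 0.27, SE 0.045, adjusted p = 8.52e-06). Here too the groups were separate. Cox6a1, the widely expressed isoform of Cox6a, was at 81.7, 81.4, 77.9 and 84.9 CPM in wild type and 94.2, 95.6, 99.3 and 97.8 CPM in the knockout. It rose by 0.25 (log2, SE 0.047, adjusted p = 4.35e-05) without overlap. Cox5b and Cox6c rose by 0.15 and 0.12, and Cox4i1, Cox5a, Cox6b1, Cox7c and Cox7a2l were not called, at log2 changes of 0.02 to 0.06. Cox4i1, the ubiquitous Cox4 isoform, was at 299, 298, 293 and 309.9 CPM in wild type and 317, 293, 313 and 294 CPM in the knockout. Cox6b1 was at 125.4, 121.5, 125 and 124 CPM in wild type and 122, 132, 116 and 133 CPM in the knockout, so both overlapped.

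The Cox7a family changed its balance. Cox7a2, the Cox7a isoform of most tissues, was at 87.8, 81.7, 85.3 and 84.9 CPM in wild type and 109, 109, 102 and 105 CPM in the knockout, a rise of 0.32 (log2, SE 0.044, adjusted p = 2.5e-07). Cox7a2l, the related protein that helps to join complexes III and IV into supercomplexes, was at 159.7, 161, 153 and 159 CPM in wild type and 173, 165, 165 and 157 CPM in the knockout, and its log2 change of 0.06 did not pass the test. As a share of the family's RPKM, Cox7a2 made up 47.3% ± 1.00 in wild type and 51.9% ± 0.897 in the knockout (SD, n = 4 each), and Cox7a2l made up 52.4% ± 1.09 and 47.9% ± 0.915. The ranges of the 2 genotypes did not overlap for either gene. The 2 shares make up nearly the whole family, so the fall of one share follows from the rise of the other. These shares are described with no test. A copy of Cox7a2l, Gm6969, held counts equal to 16.7% of those of Cox7a2l.

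The tissue-restricted isoforms were scarce in every library. The muscle isoform Cox7a1 held 87 counts in all 15 libraries, or 0.241% ± 0.127 of the Cox7a family's RPKM in untreated wild type (SD, n = 4). Cox6a2, the muscle isoform of Cox6a, held 143 counts and 0.624% ± 0.333 of its family. It was at 0.945, 0.567, 0.417 and 0.255 CPM in untreated wild type and 0.460, 0.753, 0.886 and 0.534 CPM in untreated knockout, which overlapped, and was not called (log2 change 0.29, SE 0.372). The lung isoform Cox4i2 held 4 counts in all, Cox7b2 held 3, and Cox6b2, the testis isoform, held 1. Cox8b and Cox8c held 0 counts in every library, so no level could be given. Summed striated muscle markers were between 2.27 and 4.21 CPM per library.

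Complex V held the highest and the lowest log2 changes among the members. Atp5j2, the f subunit of the membrane part, lies at chr5:145183698-145192062 on the minus strand. It was at 76.5, 75.6, 70.5 and 72.1 CPM in wild type and 104.5, 96.5, 94.8 and 104.6 CPM in the knockout. The lowest knockout library was above the highest wild-type library. Atp5j2 rose by 0.44 (log2, SE 0.045, adjusted p = 1.19e-09), the highest change among the 43 tested members. Atp5s, the coupling factor, was low throughout, at 7.29, 6.80, 6.89 and 7.91 CPM in wild type and 4.06, 5.00, 4.30 and 4.61 CPM in the knockout. It had the lowest change of the members, -0.68 (log2, SE 0.113, adjusted p = 5.75e-06), and its groups did not overlap.

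Of the catalytic F1 head, all 5 members (alpha, beta, gamma, delta and epsilon) were called higher in untreated cells, against 33.9% of all tested genes. Atp5b was at 1082, 1068, 1042 and 1078 CPM in wild type and 1259, 1268, 1240.0 and 1251 CPM in the knockout, a rise of 0.23 (log2, SE 0.030, adjusted p = 9.89e-08). Atp5c1, the gamma subunit that turns inside the head, was at 230.2, 228, 232 and 226 CPM in wild type and 278, 278, 256 and 275 CPM in the knockout (log2 change 0.25, SE 0.036, adjusted p = 8.63e-07). Both were above wild type in every knockout library. Atp5a1 (alpha), Atp5e (epsilon) and Atp5d (delta) rose by 0.18, 0.21 and 0.16. Atp5d overlapped between genotypes, at 100.8 to 112.8 CPM in wild type and 110.6 to 132.4 CPM in the knockout, and was not called under H2O2. Of the peripheral stalk, Atp5h rose by 0.10, whereas Atp5f1, Atp5j and Atp5o were not called, at 0.01, -0.06 and -0.05. Among the small membrane subunits, Atp5l was at 122, 119, 123 and 119.7 CPM in wild type and 150.0, 144, 134 and 144 CPM in the knockout. It rose by 0.24 (log2, SE 0.048, adjusted p = 5.79e-05) without overlap, and Atp5k and Atp5mpl were not called, at 0.02 and 0.12.

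The 3 genes of the membrane c ring encode the same mature protein and did not move together. Atp5g1 was at 96.7, 93.0, 82.4 and 85.2 CPM in wild type and 82.2, 76.1, 78.9 and 81.2 CPM in the knockout. The groups came close without overlapping, and Atp5g1 was lower by a log2 change of -0.17 (SE 0.050, adjusted p = 0.005). Atp5g2 was at 57.2, 69.9, 66.9 and 55.9 CPM in wild type and 76.3, 78.6, 66.4 and 61.5 CPM in the knockout, overlapping and not called (0.18, adjusted p = 0.0681). Atp5g3 was at 135, 132, 138 and 137 CPM in wild type and 143, 140.5, 138.2 and 152 CPM in the knockout, and its change of 0.08 was not called either (adjusted p = 0.0656). Of the family's RPKM in untreated wild type, Atp5g3 made up 62.5% ± 2.28, Atp5g2 28.2% ± 2.45 and Atp5g1 9.35% ± 0.780. Atp5g1 made up 7.83% ± 0.328 in the knockout (SD, n = 4 each). Atp5g2 shares sequence with Gm10175, whose row held 27609 counts, 197% of those of Atp5g2 itself. Their summed level was 176.6 ± 6.77 CPM in wild type and 204 ± 11.2 CPM in the knockout (SD, n = 4 each), so Atp5g2 values depend on how reads were divided between the pair.

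**Figure D3:**
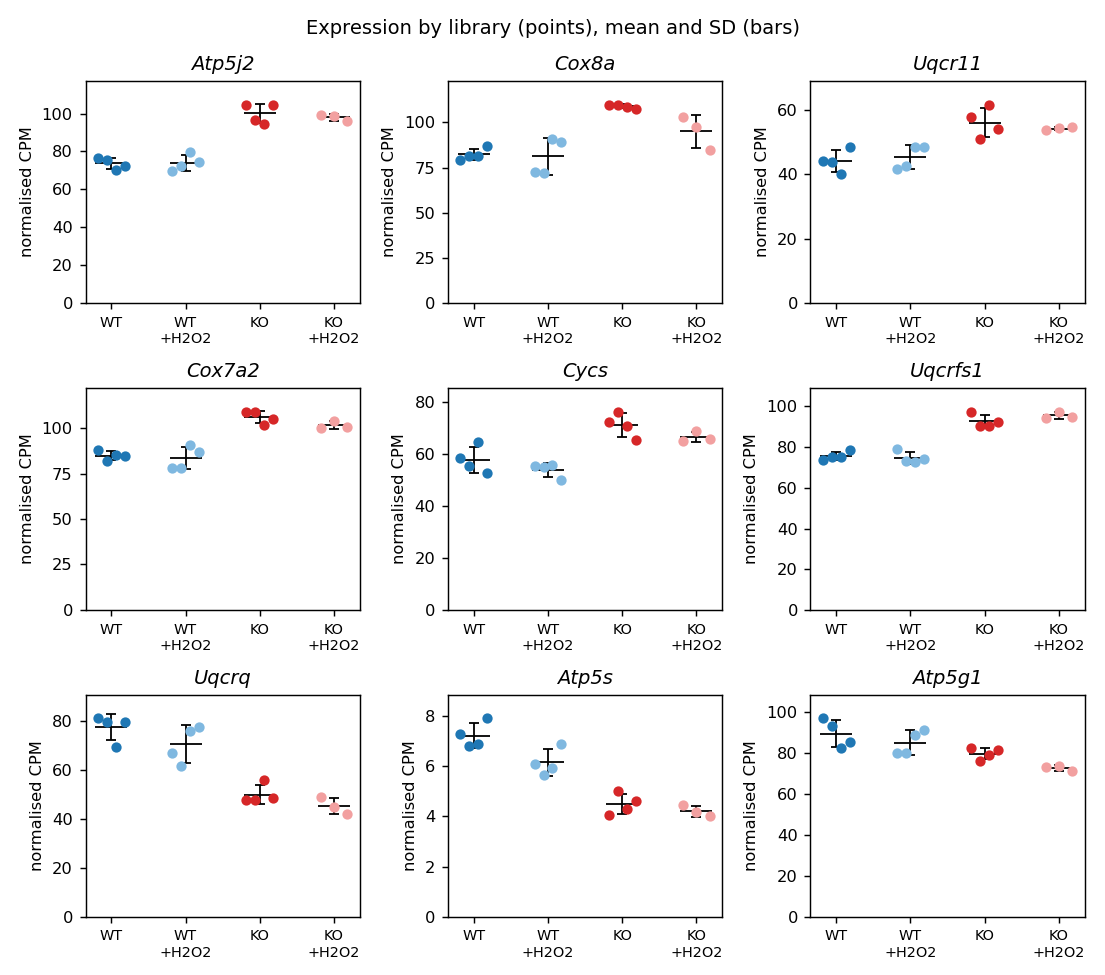
Normalised CPM of 9 members in each library, with group means and SD, for wild type (WT) and knockout (KO), untreated or with H2O2; vertical axes start at 0 and differ between panels. Atp5j2, Uqcr11, Cox7a2, Cycs and Uqcrfs1 are separate between genotypes with and without H2O2, Uqcrq and Atp5s are lower in every knockout library, and Cox8a overlaps between genotypes under H2O2.

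Without replicate 9 of untreated wild type, 24 of 43 members were called in place of 26, and 65.1% of all tested genes in place of 66.8%. Leaving out untreated knockout replicate 1 or untreated wild-type replicate 12 gave 24 members as well. Atp5d, Atp5h, Cox5b, Cox6c and Uqcrb lost their calls in at least 1 alternative fit, and no call changed direction.

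Under H2O2, the same genotype comparison called 24 of 43 members (55.8%), against 65.4% of all tested genes, with 18 higher and 6 lower (background 33% higher and 32.4% lower). The 2 genotype comparisons share no library. Of the members, 20 were called in both, 16 higher and 4 lower, and none in opposite directions. That is 76.9% of the untreated calls and 83.3% of the H2O2 calls, against 87.5% and 89.5% over all genes. The signs were the same for 38 of 43 members (88.4%, against 90.1% of all genes). Libraries did not overlap for 24 members, against 66.4% of all genes, and 1 member (Uqcrq) changed by at least 1.5-fold, against 25.4%.

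Atp5j2 was again the highest, at 69.9, 72.2, 79.7 and 74.3 CPM in treated wild type and 99.1, 98.7 and 96.0 CPM in treated knockout (log2 change 0.41, SE 0.049, adjusted p = 2.77e-08). Uqcrq was again low, at 67.2, 61.6, 76.2 and 77.8 CPM in wild type and 48.8, 45.1 and 42.0 CPM in the knockout (log2 change -0.64, SE 0.085, adjusted p = 2.9e-06). Both genes kept their groups apart. The electron-carrying members of complex III, Cyc1 and Uqcrfs1, rose by 0.36 and 0.35, and Cycs rose by 0.30. Atp5s, Atp5g1, Sdhb, Sdhc and Atp5j were lower, at -0.54, -0.22, -0.11, -0.18 and -0.15. Cox8a rose by 0.23 (adjusted p = 0.0159) but overlapped, at 72.6, 71.9, 91.0 and 89.2 CPM in wild type and 103, 97.6 and 84.8 CPM in the knockout.

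The remaining calls were made in 1 of the comparisons. Uqcrb, Cox5b, Cox6c, Atp5d, Atp5h and Atp5l were called in untreated cells, and Sdhc, Cox7c, Atp5j and Atp5mpl under H2O2. The difference itself was tested as an interaction, and no member passed it, so none of these is shown to differ between treatments. Atp5e, Cox6a1, Cox7b, Cox8a, Sdha and Sdhb lost their calls under H2O2 in at least 1 alternative fit.

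The effect of 1 µM H2O2 for 24 h was not detectable on any member. In wild-type cells 0 of 43 were called by edgeR (background 0.0153% of tested genes, 0.00764% in each direction), 2 had an unadjusted p under 0.05 (6.47% of all genes), and DESeq2 also called 0. The log2 changes lay between -0.24 and 0.30, the latter for the scarce Cox6a2. The 3 smallest p-values were those of Atp5s, Cox5b and Uqcrq, with log2 changes of -0.24, -0.13 and -0.14. Cox5b, for example, was at 61.0, 55.8, 62.0 and 64.3 CPM untreated and 49.7, 51.2, 59.7 and 62.1 CPM treated. The groups overlapped, and its adjusted p was 0.757. Atp5s went from 7.29, 6.80, 6.89 and 7.91 CPM to 6.11, 5.67, 5.94 and 6.90 CPM, with overlap (adjusted p = 0.747). Groups did not overlap for 1 member, Uqcrc2, against 3.81% of all genes, and its log2 change was -0.06.

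In knockout cells 0 of 43 members were called by edgeR (background 0.0535%, all of them lower, and 0.00764% at 1.5-fold or more), 9 had an unadjusted p under 0.05 (7.96% of all genes), and DESeq2 called 0. Without knockout H2O2 replicate 8, 4 members had an unadjusted p under 0.05. The smallest p was that of Atp5g2, at 76.3, 78.6, 66.4 and 61.5 CPM untreated and 61.6, 59.4 and 52.4 CPM treated (log2 change -0.29, adjusted p = 0.404). The sum of Atp5g2 and its copy Gm10175 was 204 ± 11.2 CPM untreated (SD, n = 4) and 206.2 ± 8.10 CPM treated (SD, n = 3). Cox5b had the next smallest p, at 64.0, 66.3, 71.6 and 68.0 CPM untreated and 61.6, 57.3 and 58.2 CPM treated, which did not overlap (-0.19, adjusted p = 0.405). Groups did not overlap for 4 members (Cox5b, Cox8a, Atp5g1 and Sdhc, all lower when treated), against 7.71% of all genes. Atp5j came next, at 86.8, 89.1, 80.8 and 93.3 CPM untreated and 81.4, 81.2 and 79.9 CPM treated (-0.11, adjusted p = 0.527).

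The difference of the H2O2 effect between genotypes was called for 0 of 43 members by edgeR (background 0%) and for 0 by DESeq2, with 4 at an unadjusted p under 0.05 (6.18% of all genes). That last count ran from 1 to 7 when 1 library was left out. The smallest p-values were those of Atp5g2 (-0.34), Sdhc (-0.13) and Atp5l (-0.15). Summed with Gm10175, Atp5g2 was at 176.6 ± 6.77 and 182.8 ± 10.8 CPM in untreated and treated wild type (SD, n = 4 each), beside the knockout sums given above. Sdhc was at 108, 104, 101 and 107 CPM in untreated wild type, 103.5, 103.8, 107 and 112 CPM in treated wild type, 104, 98.3, 97.0 and 106 CPM in untreated knockout, and 93.2, 94.8 and 94.8 CPM in treated knockout. The treated knockout libraries were the lowest for Sdhc, but the adjusted p of its interaction was 0.802.

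As a share of each library, the summed nuclear subunits were higher in the knockout and those encoded by mitochondrial DNA lower on average. Such sums weigh abundant members most, above all Atp5b and Atp5a1, with 250222 and 161861 counts over all 15 libraries. The 50 members together took 0.583% ± 0.00517 of counts without treatment in wild type and 0.630% ± 0.00915 in the knockout (SD, n = 4 each). Under H2O2 they took 0.581% ± 0.0147 (n = 4) and 0.620% ± 0.0056 (n = 3). By complex, untreated wild type and knockout took on average 0.0560% and 0.0568% for II, and 0.0804% and 0.0838% for III. Complex IV took 0.124% and 0.133%, and complex V 0.317% and 0.35%. Genotype ranges overlapped for II with and without H2O2. Those for IV overlapped under H2O2, up to 0.1298% in wild type and from 0.126% in the knockout. The 6 genes of complexes III to V in mitochondrial DNA took 1.62% ± 0.275 and 1.22% ± 0.163 in untreated cells (n = 4 each), and 1.72% ± 0.0768 (n = 4) and 1.02% ± 0.0733 (n = 3) under H2O2. The summed nuclear shares of the 2 genotypes did not overlap, whereas the mitochondrial shares overlapped in untreated cells only.

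**Figure D4:**
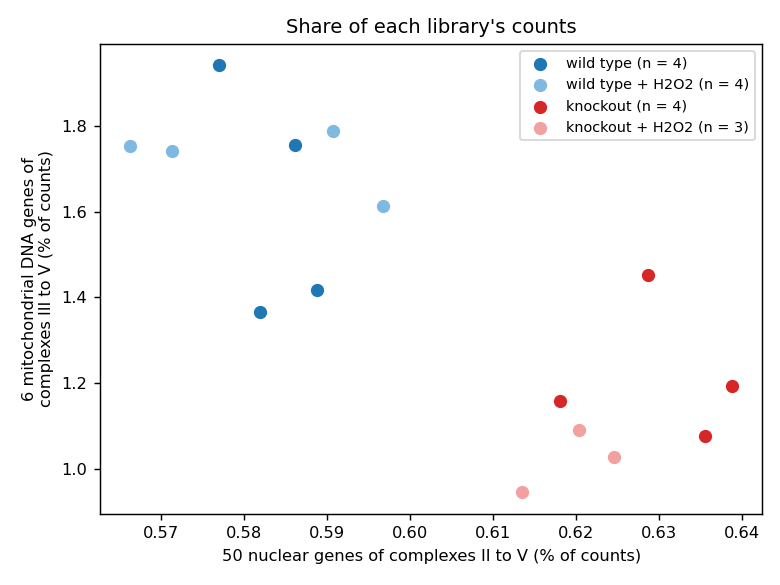
Percent of counts from the 50 nuclear genes (horizontal axis) and from the 6 mitochondrial DNA genes of complexes III to V (vertical axis); each point is 1 library. The knockout libraries lie at 0.614% or above on the horizontal axis and the wild-type libraries at 0.597% or below.

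Among the mitochondrial genes, mt-Cytb, the central subunit of complex III, was at 3866, 3705, 5242 and 5040.0 CPM in untreated wild type and 2289, 2917, 2426 and 2797 CPM in untreated knockout. It fell by 0.78 on the log2 scale (SE 0.121, adjusted p = 0.000111), and was the only 1 of the 6 called in untreated cells. Under H2O2 4 of the 6 were called lower, mt-Cytb at -1.20, mt-Atp8 at -1.09, mt-Co2 at -0.95 and mt-Co1 at -0.55 (log2). mt-Co3 and mt-Atp6 were not called, at -0.51 and -0.11 (edgeR, adjusted p = 0.0767 and 0.749). The complex V genes mt-Atp8 and mt-Atp6 thus differed, and how reads were divided among the mitochondrial genes was not tested. The share called was 66.7% under H2O2, against 65.4% of all tested genes, of which 32.4% were lower. In untreated cells it was 16.7%, against 66.8%. Of the 41 listed assembly factors of complexes II to V, 40 were tested, and 11 were higher and 7 lower in untreated knockout cells (45% called, against 66.8% of all tested genes). Cmc2 and Cox19, both needed for complex IV assembly, rose by 0.86 and 0.66, and Sdhaf4 and the mitochondrial mRNA-binding Lrpprc were lower, at -0.50 and -0.26. Under H2O2 the counts were 10 and 9 (47.5% called, against 65.4%).

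Of 7 further symbols of complex IV and V subunits or regulators that the rule does not match, 5 were in the count table. Of these, 4 were tested. In untreated cells 3 were called (75%, against 66.8% of all tested genes), and Usmg5 was not (log2 change 0.06). Atpif1, the inhibitor of ATP synthase, rose by 0.70 and Ndufa4, a complex IV subunit, by 0.22, whereas AA467197, the mouse Nmes1 gene and a relative of Ndufa4, was lower at -0.94. Of 10 transcription factors and coactivators known for respiratory genes, 5 were higher in untreated knockout cells: Myc (0.67), Pprc1 (0.51), Gabpb1 (0.32), Tfam (0.32) and Nrf1 (0.27). With Ppargc1a, 6 of the 10 (60%) were called, against 66.8% of all tested genes. Ppargc1a, the coactivator PGC-1 alpha, was lower. It held 0 counts in all 4 untreated knockout libraries and 204 in the 4 wild-type libraries, at least 68.9-fold lower against a floor of 3 counts over the group, and under H2O2 it was at least 53.7-fold lower.

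The genes next to Atp5j2 were looked at after its value was seen. Of the 12 tested genes within 500000 bases of Atp5j2 (GENCODE M21, GRCm38), 11 were higher in untreated knockout cells, none was lower, and their median log2 change was 0.54. Cpsf4, which ends 1657 bases away, rose by 1.13 and Pdap1 by 0.82. Among the 7236 tested genes with at least 10 tested neighbours in such a window, 59 (0.815%) had neighbours with a median that high. These windows overlap and include that of Atp5j2 itself, so the share is not a rate over independent places. Around Uqcrq, 2 of 9 neighbours were higher and 4 lower, with a median of -0.17. Shroom1, which lies 26374 bases from Uqcrq, had a log2 change of -7.43. Around Cox8a 7 of 29 were higher and 11 lower, and around Atp5s 5 of 14 were higher and 3 lower.

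**Figure D5:**
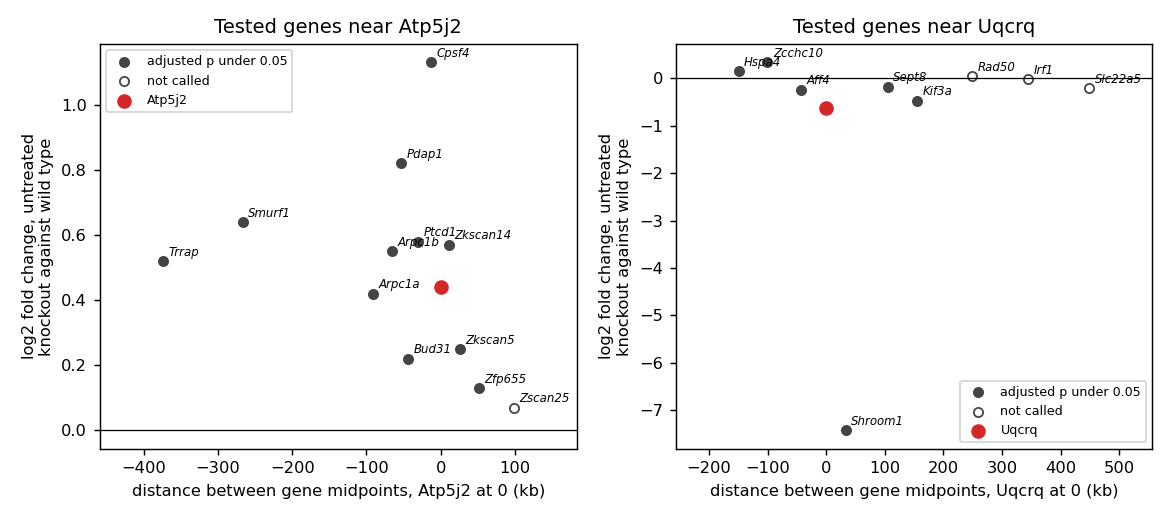
Log2 fold change in untreated knockout against wild type of the tested genes near Atp5j2 (left) and Uqcrq (right), by the distance between gene midpoints in kb; filled points passed the adjusted p of 0.05. Every gene near Atp5j2 lies above 0, whereas those near Uqcrq lie on both sides, with Shroom1 near -7.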

How the data were processed

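RNA was sequenced as stranded mRNA libraries read in pairs, per the labels' protocols. The authors deposited expected counts per gene symbol and RPKM, per the file headers; cutadapt, STAR, RSEM and genome build mm10 are named by the submitters' processing notes, without versions or settings. The deposited counts are whole numbers and were used as they stand. Whether strand was used in counting is not given in the sources used here, so overlapping genes may share reads.

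Genes passing edgeR's filterByExpr by group were tested (43 of the members, 99.917% of all counts) with edgeR 4.0.16 in R 4.3.3: TMM scaling, robust quasi-likelihood fit of the 4 group means over 15 libraries, 11 residual degrees of freedom. P-values were Benjamini-Hochberg adjusted over all 13085 tested genes and called under 0.05. The script was tested on simulated data. Alternatives were relative log expression scaling, DESeq2 1.42.0, no filter, a mean of at least 5 CPM, limma 3.58.1 on log2(RPKM + 0.1) for genes with a mean RPKM of at least 0.5, only the groups compared, removal of mitochondrial genes, and leaving out each library. Atp5s was not analysed in RPKM. Coordinates are from GENCODE M21. Copies were rows whose transcripts matched a member's at 95% identity or more over at least 100 bases and 60% of the shorter transcript. Values per library are given for up to 12 called members with the highest and 12 with the lowest log2 changes in untreated cells, the 3 with the smallest p where a treatment test called none, and the isoform families. The members and lists were chosen with earlier results of these data known. Promoter entries were not found for Atp5a1, Atp5f1, Atp5mpl, Atp5s, Cox4i1, Cox4i2, Cox6a2, Cox6c, Cox6c2, Cox8c, Cyc1, Sdhc, Uqcrb, Uqcrc2 and Uqcrq.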

Additional observations from a re-analysis of the deposited data

Results flagged for a closer look

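Within groups of 4 libraries, 1 library stood apart from the other 3 for 7 of the 135 gene and share groups examined, by Dixon's 95% criterion (the gap to the nearest library over the group's range). Chance flags about 1 in 20 groups. In untreated knockout replicate 3, Uqcrq was 55.95 CPM against 47.6 to 48.6, Cyc1 was 81.01 against 74.9 to 75.3, and Atp5c1 was 256.4 against 275 to 278. In untreated wild type, Uqcrq was 69.56 CPM in replicate 11 against 79.9 to 81.2, and Atp5k was 31.64 in replicate 12 against 29.4 to 29.8. In treated wild type, Cycs was 49.93 CPM in replicate 16 against 55.0 to 55.5, and Cox7b was 109.0 in replicate 15 against 102.7 to 103.2.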

How the results depend on the processing

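No paired analysis was possible because the groups share no replicate numbers. In untreated cells the count of members called higher was 22 and ranged from 20 to 22 when 1 library was left out and from 17 to 22 under the other 7 alternatives. The count called lower was 4, with ranges of 4 to 5 and 4 to 4. Under H2O2 the count called higher was 18, with ranges of 14 to 19 and 15 to 18, and the count called lower was 6, with ranges of 5 to 8 and 5 to 8. The H2O2 effects and the interaction had 0 member calls in each of these fits. The count of members with an unadjusted p under 0.05 moved with single libraries. For H2O2 in wild type it was 2, and 0 without wild-type replicate 9, 13 or 14 and 5 without replicate 16. For H2O2 in the knockout it was 9, and between 4 (without replicate 8) and 12 (without replicate 3). For the interaction it was 4, 1 without knockout replicate 4 or 5 or wild-type replicate 10 or 15, 2 without knockout replicate 2 or wild-type replicate 9, 11, 12 or 16, and 7 without knockout replicate 3. Of the calls, 21 of 26 in untreated cells and 18 of 24 under H2O2 kept their call and direction in every fit, and 0 reversed. Without the filter on low counts, 48 members were tested.

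In untreated cells the lost calls, with their log2 changes, were these. Atp5d lost its call without knockout replicate 3 (0.09). Atp5h lost it without knockout replicate 1 (0.08) or wild-type replicate 10, 11 or 12 (0.09 each), with no filter (0.09) and with only the groups compared (0.10). Cox5b lost it without knockout replicate 3 (0.11) or 4 (0.15) or wild-type replicate 9 (0.15) or 10 (0.11). Cox6c lost it without knockout replicate 1 (0.11) or wild-type replicate 10 (0.10). Uqcrb lost it without knockout replicate 2 (0.12) or 4 (0.09) or wild-type replicate 9 (0.12) or 12 (0.10), and with DESeq2 (0.12). All 5 also lost it with limma (0.07 to 0.12).

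Under H2O2, Cox6a1 lost its call without knockout replicate 5 (0.12), and Cox8a without knockout replicate 5 (0.17) or 7 (0.22) and with only the groups compared (0.23). Atp5e lost it without knockout replicate 7 (0.15) or 8 (0.13) or wild-type replicate 14 (0.13). Cox7b lost it without knockout replicate 7 (0.07) or wild-type replicate 13, 14 or 16 (0.12 each). Sdha lost it without knockout replicate 7 (0.08) or wild-type replicate 16 (0.09) and with no filter (0.10). Sdhb lost it without knockout replicate 5 (-0.10) or 8 (-0.11) or wild-type replicate 15 (-0.11) or 16 (-0.10) and with no filter (-0.12). Atp5e (0.14), Cox7b (0.10) and Sdha (0.08) also lost it with limma. The cause was not tested. The scarce isoforms are limited by depth, as for Cox6a2 with 143 counts over all libraries.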
